A study of Mus musculus with 3 samples.

Results

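Chemokines were followed through the cells of injured and uninjured mouse kidney by 10 genes: Ccl2, Ccl7, Ccl12, Ccl3, Ccl4, Cxcl1, Cxcl2, Cxcl10, Cxcl16 and Cx3cl1. All 10 were present in the count tables, which held 22535 genes together. The cells came from the kidney cortex of WT1CreERT2; Rosa26-tdTfl/+ mice, and their RNA was counted on BD Rhapsody, where every molecule caught carries its own random tag and counts once (a unique molecular identifier, UMI). All 3 libraries shared this genotype, in which Cre driven by Wt1 switches on a red fluorescent reporter, tdTomato (tdT), in Wt1-expressing cells and their descendants once tamoxifen is given. Flow sorting raised the share of tdT+ cells, and 4 kidneys were pooled for each library. Sham, from mice with sham surgery, combined tdT+ with tdT- cells. IRI24h-TDN did so too, 24 h after both kidneys underwent severe ischemia-reperfusion injury (IRI). IRI24h-TD held the tdT+ fraction only, taken at that same interval. Each condition is 1 library, so differences between them could not be tested against replicates.

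Chemokines are small secreted proteins that guide the migration of leukocytes through receptors on the cell surface. CC chemokines such as Ccl2, Ccl7 and Ccl12 act on Ccr2 and draw monocytes, and Ccl3 and Ccl4 are products of activated macrophages. Among the CXC chemokines, Cxcl1 and Cxcl2 draw neutrophils through Cxcr2, and the interferon-inducible Cxcl10 draws T cells through Cxcr3. Cxcl16 and Cx3cl1 (fractalkine) are made as membrane proteins, are released by the proteases Adam10 and Adam17, and act on Cxcr6 and Cx3cr1. In the kidney, chemokines are known as early signals of tubular injury, and NF-κB is the transcription factor best known for inducing them.

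After barcodes with fewer than 200 genes or more than 50% mitochondrial UMIs were left out, 8047 cells of 10062 barcodes were kept in Sham, 9024 of 10062 in IRI24h-TDN and 9689 of 9884 in IRI24h-TD. Why the first pair of tables holds equally many barcodes is not given in the sources used here. The deposited tables summed to 69980443, 92355554 and 93470709 UMIs, and the median kept cell had 7746, 9151 and 9529 UMIs. Clusters were named from markers that include no chemokine or chemokine receptor, which gave 17 classes written as "-like". Podocyte-like cells made up 54.1%, 57.4% and 89.6% of the cells kept from the libraries in that order. Immune classes held 416, 973 and 19 cells, of which 241, 652 and 10 were macrophage-like. Pairs of libraries shared 102 to 114 barcodes. The macrophage list (C1qa, Mrc1 and 8 others) summed to 16700 CPM (UMIs scaled to a class total of 1e6) in macrophage-like cells against 21.2 CPM in podocyte-like cells. Lymphocyte-like cells were led by plasma cell genes, and the podocyte list summed to 14542 CPM in neutrophil-like cells, which held only 21 and 31 cells in Sham and IRI24h-TDN. In endothelial-like cells the podocyte list summed to 10954 CPM beside 13797 CPM of the endothelial list. A level below is the CPM over all UMIs of the cells of a class in 1 library, with the exact Poisson 95% interval of its count. The intervals and the floor of 3 counts used for a count of 0 cover counting error only.

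The genes lie in clusters on GRCm38 (mm10). Ccl2 (chr11:82035571-82037453), Ccl7 (chr11:82045712-82047525) and Ccl12 (chr11:82101845-82103400) span 67830 bases on the plus strand of chromosome 11. Ccl3 (chr11:83647844-83649355) and Ccl4 (chr11:83662584-83664683) lie within 16840 bases of the same chromosome on opposite strands. Cxcl16 (chr11:70453983-70459984) is also on chromosome 11, while Cx3cl1 (chr8:94772009-94782427) is on chromosome 8. Cxcl1 (chr5:90891241-90893115) and Cxcl2 (chr5:90903871-90905938) fill 14698 bases of chromosome 5, and Cxcl10 (chr5:92346638-92348889) is on its minus strand. How reads shared by the similar Ccl2, Ccl7 and Ccl12 were counted is not given in the sources used here.

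Upstream sequence is shown for the CXC genes because Cxcl1 and Cxcl2 moved together, and Cxcl10 apart from them, in macrophage-like cells. The RefSeq promoter table for GRCm38.p6 held 6 of the 10 members (Cxcl1, Cxcl2, Cxcl10, Cx3cl1, Ccl12 and Ccl3), and Ccl2, Ccl4, Ccl7 and Cxcl16 are named only. The 250 bases before the RefSeq start are printed 5′ to 3′ on the strand of the gene, with matches to the NF-κB (κB) consensus in capitals, searched on both strands, overlapping matches being merged.
Cxcl1, chr5:90890995-90891244, plus strand: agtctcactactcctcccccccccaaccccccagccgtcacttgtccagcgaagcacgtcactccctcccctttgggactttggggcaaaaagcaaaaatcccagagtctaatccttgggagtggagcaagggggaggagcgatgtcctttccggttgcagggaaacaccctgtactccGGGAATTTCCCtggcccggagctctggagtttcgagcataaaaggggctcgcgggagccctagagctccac
Cxcl2, chr5:90903649-90903898, plus strand: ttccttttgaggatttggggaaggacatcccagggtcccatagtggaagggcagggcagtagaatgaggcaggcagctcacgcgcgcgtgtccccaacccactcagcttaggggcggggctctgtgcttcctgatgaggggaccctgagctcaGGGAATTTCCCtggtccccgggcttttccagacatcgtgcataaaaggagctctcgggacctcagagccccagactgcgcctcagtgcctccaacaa
Cxcl10, chr5:92348890-92349139, minus strand: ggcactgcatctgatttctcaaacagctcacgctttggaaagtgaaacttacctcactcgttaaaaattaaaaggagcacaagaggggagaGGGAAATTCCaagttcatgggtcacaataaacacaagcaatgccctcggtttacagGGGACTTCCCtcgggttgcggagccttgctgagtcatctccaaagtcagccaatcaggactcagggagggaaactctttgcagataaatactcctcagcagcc
Cxcl1 and Cxcl2 held the same run of 11 letters, at 71 to 61 and at 97 to 87 bases before the start. Cxcl10 held 2 runs that differ from it, at 159 to 150 and at 103 to 94 bases. No match lay in these windows of Cx3cl1, Ccl12 or Ccl3. Among 32851 RefSeq starts, 1281 (3.9%) held at least 1 match in the same window and 47 (0.143%) at least 2. A match describes the letters only.

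Most UMIs of the CC chemokines came from immune cells in both mixtures. Immune classes held 93.5% of the Ccl12 UMIs in Sham and 93.9% in IRI24h-TDN, 93.1% and 92.4% of those of Ccl3, and 92.2% and 92.0% of those of Ccl4. For Ccl2 the immune share was 61.8% in Sham and 94.0% in IRI24h-TDN, and the PEC-like cells (with and without PTEC genes) held 21.8% and 0.58%. PEC stands for parietal epithelial cells, which line Bowman's capsule, and PTEC for proximal tubular epithelial cells. The class with PTEC genes had more of the PTEC marker list (6846 CPM) than of the PEC list (5026 CPM). The immune share of Ccl7 was 81.7% and 94.7%.

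The CXC and CX3C members had wider sources. PEC-like cells (with and without PTEC genes) held 45.7% of the Cxcl1 UMIs of Sham and 6.57% of those of IRI24h-TDN, where immune classes held 61.3% against 14.1% in Sham. The class with PTEC genes held 24.5% of the Cxcl1 UMIs in Sham and 5.26% in IRI24h-TDN, and that without held 21.2% and 1.31%. Cxcl2 was mainly immune in both, at 87.9% and 90.8%. For Cxcl10 the PEC-like share was 35.5% in Sham and 2.93% in IRI24h-TDN, and the tubule share was 4.2% and 33.6%. Cxcl16 was split between immune (39.3% and 64.6%), PEC-like (37.8% and 6.05%) and tubule classes (14.0% and 21.5%). Immune classes held 1.11% and 1.39% of the Cx3cl1 UMIs, against 24.3% and 58.2% in tubule classes and 37.9% and 29.3% in podocyte-like cells. These shares follow the numbers of cells sorted and kept as well as their levels: PEC-like cells numbered 591 in Sham and 188 in IRI24h-TDN, macrophage-like cells 241 and 652.

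**Figure D1:**
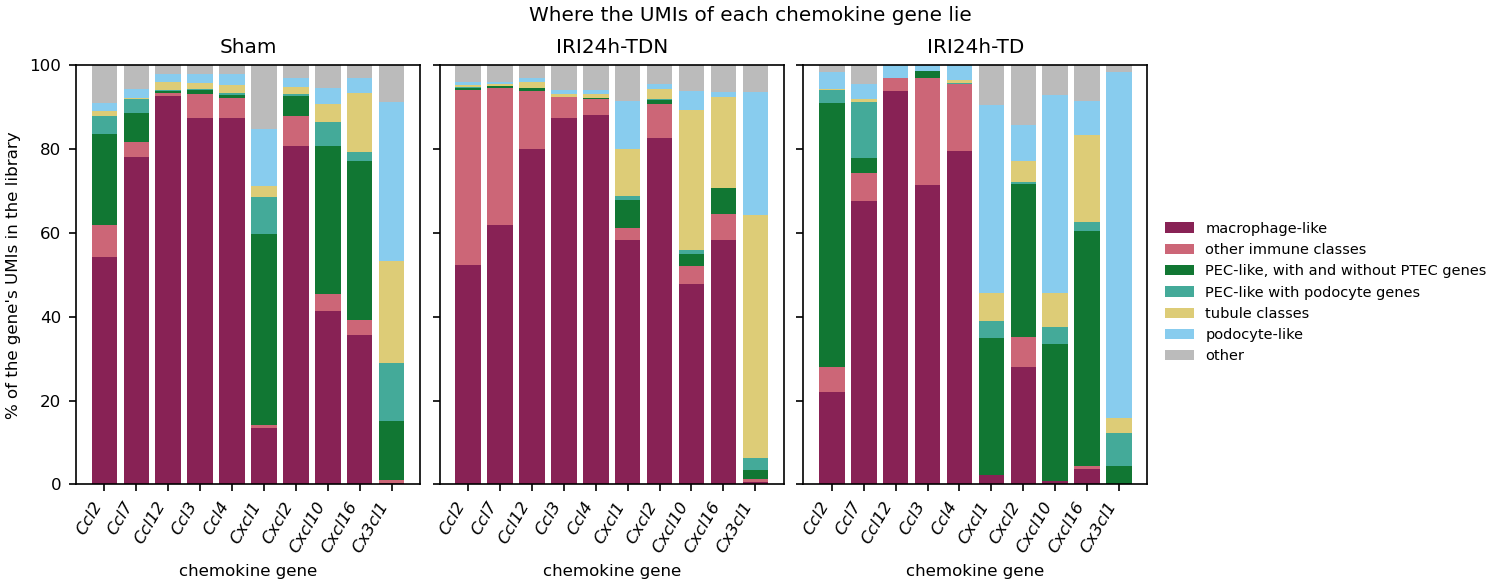
Stacked bars give, for each chemokine gene (x axis), the percent of its UMIs in a library (y axis) that lay in each group of classes, with 1 panel per library. Macrophage-like cells hold most of Ccl12, Ccl3, Ccl4 and Cxcl2 in both mixtures, while the share of PEC-like cells (with and without PTEC genes) in Cxcl1 is 45.7% in Sham and 6.57% in IRI24h-TDN.

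By level, macrophage-like cells led in Sham for 9 of the 10 members among the 13 classes with at least 50 cells, Cx3cl1 being the exception. In IRI24h-TDN they led for 7 of 10 among 14 classes, and monocyte-like cells led for Ccl2 and Ccl7. In IRI24h-TD, where 5 classes had 50 cells, PEC-like cells with PTEC genes led for Ccl2, Ccl3, Cxcl1, Cxcl2, Cxcl10 and Cxcl16, although Ccl3 there was 2 UMIs. Classes differed in depth: median UMIs per macrophage-like cell were 4050 in Sham and 5404.5 in IRI24h-TDN, against 8235 and 9332 in podocyte-like cells. Shares of cells with a UMI are therefore given after thinning each cell to 2400 UMIs, which left out 23 and 3 macrophage-like cells. For genes of macrophages, the level in podocyte-like cells of the same library served as a level for comparison. How much of that level is free RNA was not tested.

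**Figure D2:**
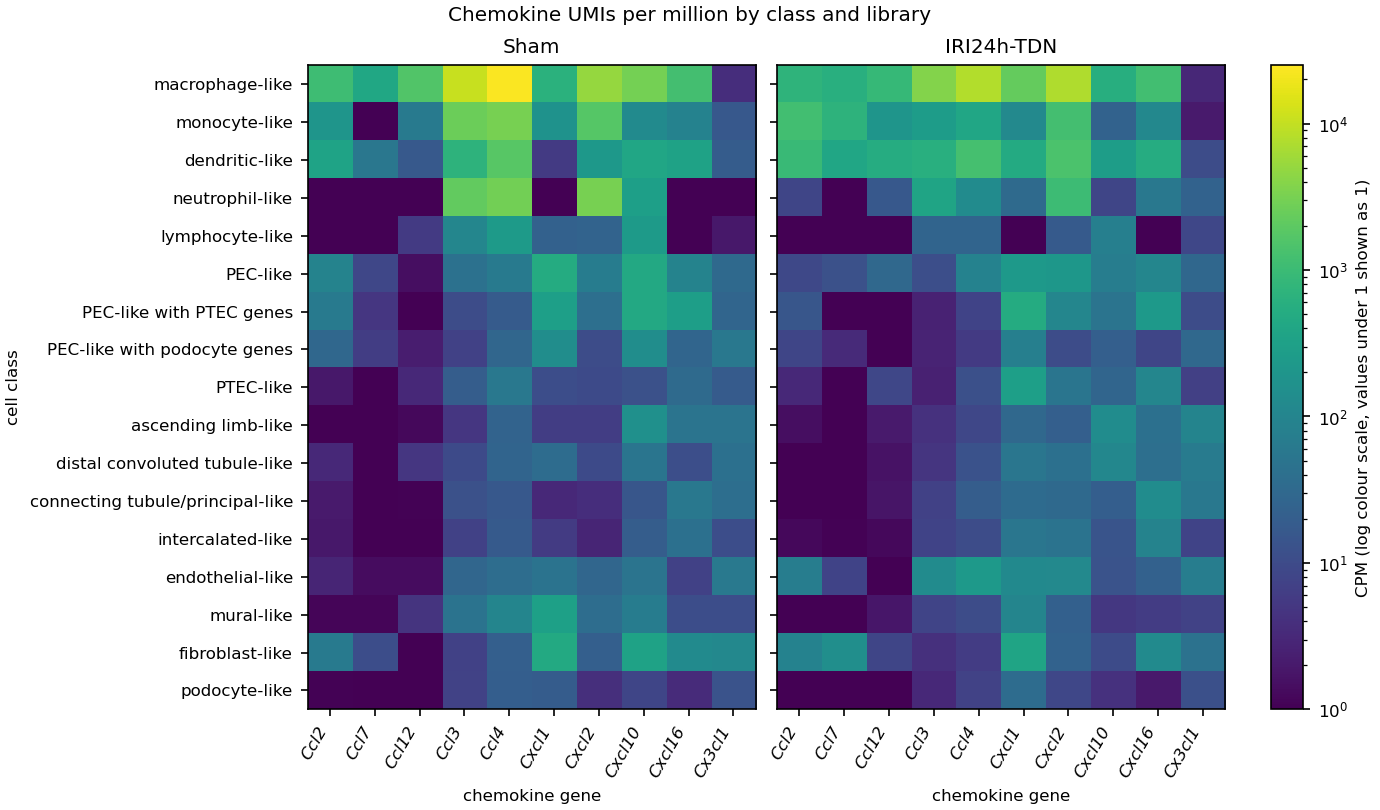
Colour gives CPM on a log scale for each chemokine gene (x axis) in each class of at least 20 cells (y axis), in Sham and IRI24h-TDN, and each column is to be read down. Macrophage-like cells are the brightest class in most columns, and the Cxcl1 and Cxcl2 columns are brighter in tubule classes of IRI24h-TDN than of Sham.

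The chemokines of monocytes, Ccl2, Ccl7 and Ccl12, shared their source in the immune classes but differed in direction. In macrophage-like cells Ccl2 was 1063 CPM (1002 to 1127) in Sham and 711 CPM (685 to 738) in IRI24h-TDN. Ccl12 was 1612 CPM (1536 to 1691) and 875 CPM (846 to 905). Ccl7 was 411 CPM (373 to 452) and 592 CPM (568 to 616). The first pair was thus lower after IRI, at 0.669-fold (0.624 to 0.718) and 0.543-fold (0.512 to 0.576), and Ccl7 was higher at 1.44-fold (1.3 to 1.6). The thinned shares of cells with Ccl7 overlapped, 22.5% (17.1 to 28.6) against 23.7% (20.5 to 27.2), while before thinning a cell with Ccl7 carried 7.32 UMIs on average in Sham and 11.9 in IRI24h-TDN.

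Monocyte-like cells, which carry Ly6c2, Plac8 and Chil3, numbered 28 in Sham and 203 in IRI24h-TDN. Their Ccl2 level was 200 CPM (129 to 295) in Sham, from 25 UMIs of which 68% lay in 1 cell, and 1158 CPM (1103 to 1214) in IRI24h-TDN, where the top cell held 7.07%. Ccl7 had no UMI in Sham and 998 UMIs, 687 CPM (645 to 731), in IRI24h-TDN, at least 28.6-fold higher against the floor. Ccl12 was 64.0 CPM (27.6 to 126) and 197 CPM (175 to 222). All 3 were higher after IRI in these cells, whereas only Ccl7 was higher in macrophage-like cells. In IRI24h-TDN the order of Ccl2 was monocyte-like (1158 CPM), dendritic-like (941 CPM, 864 to 1024) and macrophage-like cells (711 CPM), with no overlap of intervals. The dendritic-like class was not pure by its markers, with 5408.5 CPM of the macrophage list and 2563 CPM of the monocyte list beside 1318 CPM of its own. The next class of at least 50 cells, endothelial-like, had 72.4 CPM. Dendritic-like cells (47 and 65) also had more Ccl12 after IRI, 16.6 CPM (6.09 to 36.1) against 531 CPM (473 to 594), and their C1q level (C1qa, C1qb and C1qc summed) was 586 CPM in Sham and 5054 CPM in IRI24h-TDN. The part of this in their Ccl12 level was not tested.

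Outside the immune classes Ccl2 was carried by few cells. PEC-like cells without PTEC genes had 91.3 CPM (78.8 to 105) in Sham, 9.12 CPM in IRI24h-TDN and 10.8 CPM (4.68 to 21.4) in IRI24h-TD, and in Sham 16 of 215 cells had a UMI and 49.2% of the UMIs lay in 1 cell. PEC-like cells with PTEC genes had 63.8 CPM (56.2 to 72.0), 14.9 CPM (9.45 to 22.4) and 116 CPM (102 to 132), the last from 8 of 154 cells with 71.4% of the UMIs in 1 cell. In endothelial-like cells of IRI24h-TDN Ccl2 reached 72.4 CPM (51.2 to 99.4), of which 89.5% came from 1 cell. Fibroblast-like cells (55 and 36) had 61.4 CPM (35.8 to 98.3) of Ccl2 in Sham and 88.2 CPM (63.9 to 119) in IRI24h-TDN, with intervals that overlap, and 10.8 CPM (2.23 to 31.7) and 150 CPM (117 to 188) of Ccl7, where 11 of 36 cells carried it.

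Ccl3 and Ccl4, which sit side by side on chromosome 11, had their highest level of any class in macrophage-like cells of Sham. Ccl3 was 10604 CPM (10408 to 10802) in Sham and 3767 CPM (3706 to 3828) in IRI24h-TDN, and Ccl4 was 23284 CPM (22993 to 23577) and 7741 CPM (7654 to 7829). Both were about equally lower after IRI, at 0.355-fold (0.347 to 0.364) and 0.333-fold (0.327 to 0.338). After thinning, 99.5% (97.5 to 100) of the Sham cells and 87.8% (85.1 to 90.2) of the IRI24h-TDN cells had Ccl4, and 96.3% (92.9 to 98.4) and 76.1% (72.7 to 79.4) had Ccl3. Monocyte-like cells showed the same direction, with 2527 CPM (2256 to 2822) against 275 CPM (248 to 303) of Ccl3 and 3191 CPM (2886 to 3520) against 398 CPM (366 to 431) of Ccl4. Neutrophil-like cells did too, with 2231 and 373 CPM of Ccl3 and 2907 and 131 CPM of Ccl4. In that class the leukocyte genes Ptprc, Tyrobp, Fcer1g, Lyz2, Cd74 and Laptm5 also summed to less, 11729 CPM in Sham and 3188 CPM in IRI24h-TDN. The part of this in its Ccl3 and Ccl4 levels was not tested. In IRI24h-TD the 10 macrophage-like cells had 1666 CPM (1351 to 2032) of Ccl3 and 4602 CPM (4067 to 5187) of Ccl4.

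In epithelial and mural classes Ccl3 and Ccl4 were under 100 CPM. Podocyte-like cells had 20.7 CPM (19.2 to 22.2) of Ccl4 in Sham and 7.48 CPM (6.74 to 8.28) in IRI24h-TDN. Sham levels of Ccl4 were 24.8 CPM (15.1 to 38.2) in ascending limb-like, 16.4 CPM (11.1 to 23.2) in connecting tubule and principal-like and 17.3 CPM (12.1 to 23.9) in intercalated-like cells, which do not differ from podocyte-like cells beyond counting error. PTEC-like cells were above them, with 56.8 CPM (51.7 to 62.3) of Ccl4, 31.1% of it in 1 cell and a thinned share of 9.0% (7.18 to 11.1), and they had 12 CPM (8.26 to 16.9) in IRI24h-TDN. PEC-like cells without PTEC genes had 66.2 CPM (55.6 to 78.3) of Ccl4 and 43.0 CPM (34.5 to 52.9) of Ccl3 in Sham, with 75.2% and 76.4% in 1 cell. Connecting tubule and principal-like cells of IRI24h-TDN were also above podocyte-like cells, with 19.6 CPM (15.2 to 24.9) of Ccl4, 37.3% of it in 1 cell. So were distal convoluted tubule-like cells of IRI24h-TDN, with 86 Ccl4 UMIs among 6821600. PEC-like cells without PTEC genes were too, with 79 among 877070 in IRI24h-TDN, where their C1q summed to 129 CPM. Mural-like cells of Sham had 99.8 CPM (85.5 to 116) of Ccl4 with 55.2% in 1 cell. In endothelial-like cells of IRI24h-TDN, 97.1% of the Ccl3 UMIs and 95% of the Ccl4 UMIs lay in 1 cell. Levels of Ccl3 and Ccl4 that do not exceed that of podocyte-like cells were not read as expression of the class, and their source was not tested.

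Cxcl1 and Cxcl2, the chemokines of neutrophils, were higher after IRI in macrophage-like, dendritic-like and PTEC-like cells. In macrophage-like cells Cxcl1 was 640 CPM (592 to 690) in Sham and 2254 CPM (2207 to 2301) in IRI24h-TDN, 3.52-fold higher (3.26 to 3.82). Cxcl2 was 4948 CPM (4814 to 5084) and 7411 CPM (7326 to 7497), 1.5-fold higher (1.45 to 1.54). The thinned share of cells with Cxcl1 was 23.4% (17.9 to 29.6) and 58.7% (54.8 to 62.5), and with Cxcl2 69.7% (63.2 to 75.8) and 86.6% (83.7 to 89.1). More cells carried Cxcl1, and a cell with Cxcl1 carried more on average before thinning, 10.5 UMIs in Sham and 21.3 in IRI24h-TDN. Macrophage-like cells of IRI24h-TDN were deeper, and the part of depth in this average was not tested. Dendritic-like cells had 2 Cxcl1 UMIs in Sham and 277 in IRI24h-TDN, 484 CPM (428 to 544), and their Cxcl2 level was 219 and 1432 CPM, although 98.7% of the Sham UMIs lay in 1 cell. C1q summed to 586 CPM in dendritic-like cells of Sham and 5054 CPM in those of IRI24h-TDN. The part of macrophage RNA in their Cxcl1 and Cxcl2 levels was not tested. Monocyte-like cells did not follow, with 176 CPM (110 to 266) and 119 CPM (102 to 138) of Cxcl1 and 1704 CPM (1482 to 1948) and 1209 CPM (1153 to 1266) of Cxcl2.

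In tubule classes Cxcl1 was 9.87 CPM in Sham and 75.7 CPM in IRI24h-TDN, 7.66-fold higher (6.41 to 9.23), and Cxcl2 was 7.69 and 38.4 CPM, 5.0-fold higher (4.07 to 6.2). This group changed in makeup, with 49 and 447 distal convoluted tubule-like and 986 and 149 PTEC-like cells. Distal convoluted tubule-like cells had 22 Cxcl1 UMIs in Sham and 358 in IRI24h-TDN, a log2 ratio of 0.53. Among the tubule classes PTEC-like cells had the largest difference of Cxcl1 in the reported setting, from 10.9 CPM (8.74 to 13.5) to 298 CPM (278 to 319), 27.3-fold (21.8 to 34.5). With a limit of 20% mitochondrial UMIs the order turned, with log2 ratios of 4.81 in intercalated-like and 4.27 in PTEC-like cells. In PTEC-like cells Cxcl2 was 9.91 CPM and 50.9 CPM (42.8 to 60.1), 5.13-fold (3.87 to 6.86). Cxcl2 was 2.88 CPM and 46.7 CPM (40.8 to 53.3) in intercalated-like cells, 16.2-fold (7.34 to 44.7), and 3.69 CPM and 31.9 CPM (26.2 to 38.5) in connecting tubule and principal-like cells, 8.65-fold (4.06 to 22), and of these fold intervals only the latter overlaps that of PTEC-like cells. Cxcl1 was found in 38 of 986 PTEC-like cells of Sham and in 68 of 149 of IRI24h-TDN, or in 1.73% (0.972 to 2.84) and 23.8% (17.2 to 31.5) after thinning. The podocyte-like share was 2.94% and 6.35%, and the share of PTEC-like cells was below it in Sham and above it in IRI24h-TDN. How much of the podocyte-like Cxcl1 is free RNA was not tested. Connecting tubule and principal-like cells had 3.17 and 34.6 CPM (28.6 to 41.4) of Cxcl1, and intercalated-like cells 5.76 and 54.3 CPM (47.9 to 61.4), of which 47.3% lay in 1 cell. Their thinned shares in IRI24h-TDN, 3.75% (1.95 to 6.46) and 4.37% (2.47 to 7.11), had intervals that reach that of podocyte-like cells. Ascending limb-like cells had 5 Cxcl1 UMIs in Sham and 145 in IRI24h-TDN, and this direction turned under other settings for the cells and clusters.

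The PEC-like cells differed among themselves. Without PTEC genes Cxcl1 was 516 CPM (486 to 548) in Sham, 226 CPM (195 to 260) in IRI24h-TDN and 84.0 CPM (64.4 to 108) in IRI24h-TD. With PTEC genes it was 304 CPM (287 to 321), 517 CPM (481 to 554) and 780 CPM (741 to 820). The order of the libraries was opposite in these classes, with log2 ratios of IRI24h-TDN to Sham of -1.19 and 0.77. Without correction between libraries and at a clustering resolution of 0.6 the clustering gave no separate class with PTEC genes, and the undivided PEC-like cells had log2 ratios of 0.032 and 0.084. Together they had 375 CPM in Sham and 411 CPM in IRI24h-TDN, 1.1-fold (1.02 to 1.18), a ratio that turned with the settings. Cxcl2 was higher in IRI24h-TDN in both, 69.6 CPM (58.7 to 81.9) against 217 CPM (187 to 250) without and 41.1 CPM (35.1 to 47.8) against 106 CPM (90.1 to 123) with PTEC genes. In IRI24h-TD Cxcl2 was 9.48 CPM (3.81 to 19.5) without and 228 CPM (208 to 251) with PTEC genes. C1q summed to 10.6, 129 and 0 CPM in PEC-like cells without PTEC genes of Sham, IRI24h-TDN and IRI24h-TD, and to 7.14, 10.4 and 0 CPM in those with PTEC genes. Macrophage RNA thus moved with Cxcl2 in the former class, where 36.8% of the Cxcl2 UMIs of IRI24h-TDN lay in 1 cell, and its part was not tested.

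Stromal and endothelial classes differed in Cxcl1. Mural-like cells, the smooth muscle, renin and mesangial cells, had 322 CPM (296 to 350) in Sham and 102 CPM (89.8 to 114) in IRI24h-TDN, 0.315-fold (0.272 to 0.365). The thinned share of cells with Cxcl1 was 12.4% (8.66 to 16.9) and 8.73% (6.31 to 11.7), with overlapping intervals, and before thinning a mural-like cell with Cxcl1 carried on average 13.2 UMIs in Sham and 4.17 in IRI24h-TDN. Fibroblast-like cells had 477 CPM (399 to 565) and 371 CPM (319 to 430), with overlapping intervals, of which 44.7% lay in 1 cell in IRI24h-TDN. Endothelial-like cells had 46.8 CPM (32.2 to 65.7) and 122 CPM (93.9 to 156), with 42.4% and 43.7% in 1 cell.

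Cxcl10, the interferon-inducible chemokine, went the other way from Cxcl1 in macrophage-like cells. It was 3070 CPM (2965 to 3178) in Sham and 582 CPM (558 to 607) in IRI24h-TDN, 0.19-fold (0.18 to 0.2), and its thinned share of cells was 79.4% (73.4 to 84.5) and 29.6% (26.1 to 33.3). It was also lower in PEC-like cells without PTEC genes, at 453 CPM (425 to 483), 74.1 CPM (57.2 to 94.5, with 66.2% in 1 cell) and 85.4 CPM (65.6 to 109) in Sham, IRI24h-TDN and IRI24h-TD, and in those with PTEC genes, at 449 CPM (428 to 470), 48.6 CPM (38.2 to 61.0) and 94.2 CPM (81.1 to 109). In Sham 34.9% (28.5 to 41.7) and 38.2% (32.9 to 43.7) of the thinned cells of these classes had Cxcl10, and in IRI24h-TDN 5.41% (1.49 to 13.3) and 7.48% (3.28 to 14.2). Mural-like cells had 69.1 CPM (57.2 to 82.6) and 5.25 CPM, and fibroblast-like cells 340 CPM (274 to 415) and 10.3 CPM (3.33 to 23.9). Dendritic-like cells differed less, with 396 CPM (333 to 466) and 285 CPM (243 to 332), in a class whose C1q level also differed between these libraries.

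Tubule classes differed in the direction of Cxcl10. Distal convoluted tubule-like cells (49 and 447) had 50.3 CPM (34.2 to 71.4) in Sham and 110 CPM (102 to 118) in IRI24h-TDN, with 69 of the 447 cells carrying it. Ascending limb-like cells had 162 CPM (136 to 192) and 136 CPM (126 to 147), but 58.0% of the Sham UMIs lay in 1 of the 6 cells that carried it, and without the top cell of each library the log2 ratio was 0.88 in place of -0.25. In IRI24h-TDN 68 of 456 ascending limb-like cells had Cxcl10, which is 8.89% (6.43 to 11.9) after thinning, against 0.792% (0.569 to 1.07) of podocyte-like cells. PTEC-like cells had 12.2 CPM (9.89 to 14.9) and 26.9 CPM (21.1 to 33.8) of Cxcl10. Connecting tubule and principal-like cells, with 14.8 CPM (9.82 to 21.3) and 20.8 CPM (16.3 to 26.3), and intercalated-like cells, with 19.7 CPM (14.1 to 26.7) and 13.9 CPM (10.8 to 17.7), had intervals that overlap. Tubule classes together thus had 24.6 and 71.5 CPM, 2.9-fold (2.57 to 3.28), in a group that held 49 and 447 distal convoluted tubule-like and 986 and 149 PTEC-like cells.

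**Figure D3:**
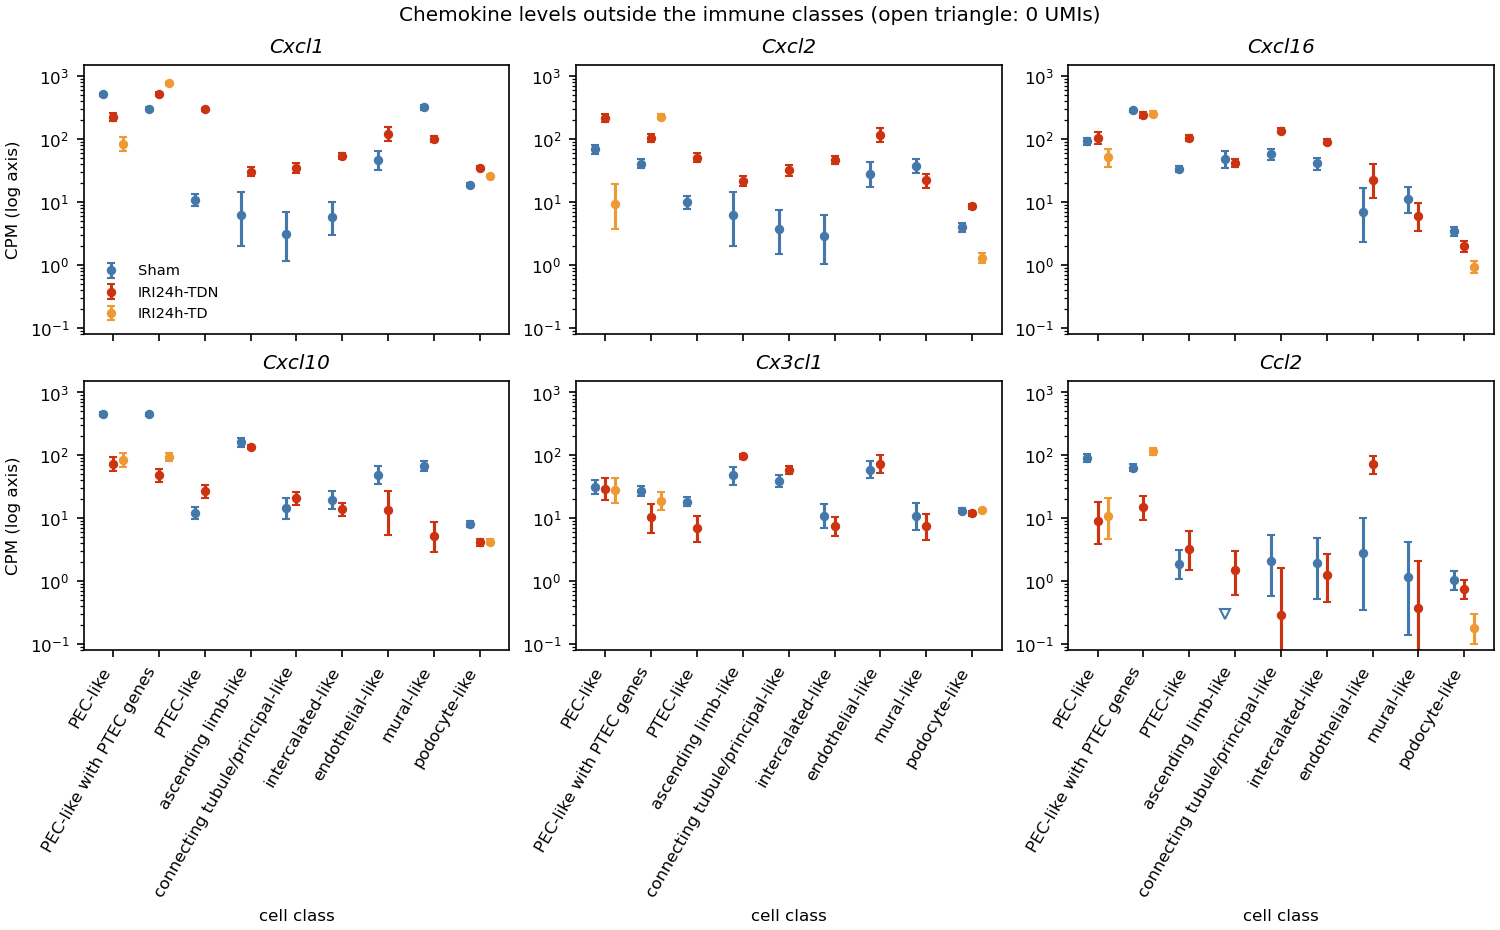
Points give CPM on a log axis with exact Poisson 95% intervals for 6 chemokine genes in 9 classes outside the immune cells (x axis), in Sham, IRI24h-TDN and, for PEC-like and podocyte-like cells, IRI24h-TD. An open triangle marks 0 UMIs. Cxcl1 lies at 10.9 CPM in Sham and 298 CPM in IRI24h-TDN in PTEC-like cells, while Cxcl10 in PEC-like cells lies near 450 CPM in Sham and under 100 CPM after IRI.

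Of the membrane-bound chemokines, Cxcl16 in macrophage-like cells was 1220 CPM (1154 to 1289) in Sham and 1149 CPM (1115 to 1183) in IRI24h-TDN, and the interval of the ratio, 0.885 to 1.0, reaches 1. Most macrophage-like cells carried it, 84.9% (79.4 to 89.4) and 88.3% (85.6 to 90.7) after thinning. PEC-like cells with PTEC genes had its highest level of the named classes outside the immune cells, with 288 CPM (272 to 305), 242 CPM (218 to 268) and 255 CPM (233 to 278) in Sham, IRI24h-TDN and IRI24h-TD, of which the latter pair differed by less than counting error. PTEC-like cells had 33.7 CPM (29.8 to 38.0) and 105 CPM (93.3 to 118), 3.12-fold higher (2.63 to 3.7), and the thinned share was 7.04% (5.42 to 8.95) and 21.8% (15.4 to 29.3). In the distal nephron Cxcl16 was 57.5 CPM (47.2 to 69.4) and 136 CPM (124 to 149) in connecting tubule and principal-like cells, 41.3 CPM (33.0 to 51.0) and 92.0 CPM (83.6 to 101) in intercalated-like cells and 11.4 CPM (4.57 to 23.4) and 39.9 CPM (35.3 to 44.9) in distal convoluted tubule-like cells. Ascending limb-like cells did not share this, with 48.3 CPM (34.3 to 66.0) and 41.5 CPM (35.9 to 47.7).

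Cx3cl1 had few UMIs in immune cells. Macrophage-like cells had 4 UMIs in Sham and 12 in IRI24h-TDN. Its Sham order was fibroblast-like (112 CPM, 76.1 to 159), endothelial-like (59.6 CPM, 42.9 to 80.5), PEC-like with podocyte genes (56.8 CPM, 48.7 to 65.9) and ascending limb-like cells (48.3 CPM, 34.3 to 66.0), where each neighbour in the order overlaps the next. In IRI24h-TDN it was ascending limb-like (97.6 CPM, 88.9 to 107), endothelial-like (74.3 CPM, 52.8 to 102), distal convoluted tubule-like (67.1 CPM, 61.1 to 73.6) and connecting tubule and principal-like cells (58.3 CPM, 50.5 to 67.0), and again each neighbour overlaps the next. Ascending limb-like cells had 2.02-fold more (1.46 to 2.88), with a thinned share of 12.8% (7.2 to 20.6) and 22.9% (19.1 to 27.1). In these cells Lcn2, a marker of tubular injury chosen after its values were seen, was 225 CPM in Sham and 6040 CPM in IRI24h-TDN. Lcn2 was higher in the other tubule classes too. It was 412 and 4095 CPM in distal convoluted tubule-like, 83.4 and 2829 CPM in connecting tubule and principal-like and 0.961 and 63.6 CPM in intercalated-like cells. The log2 ratios of Cx3cl1 there were 0.64, 0.55 and -0.55. PTEC-like cells had less Cx3cl1 after IRI, 18.3 CPM (15.4 to 21.5) and 6.91 CPM, with 0.509 and 22.2 CPM of Lcn2. Endothelial-like cells differed by less than counting error, 1.25-fold (0.785 to 1.98).

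Among macrophage-like cells 9 members had at least 20 UMIs in the libraries together, Cx3cl1 being left out. At a fold of at least 2, Cxcl1 was higher in IRI24h-TDN and Ccl3, Ccl4 and Cxcl10 were lower, so 1 of 9 was higher and 3 of 9 lower. Among all 9490 genes with 20 UMIs in these cells, 15.2% were higher and 7.98% lower by that rule. The median log2 ratio was -0.58 over the 9 members and 0.23 over all genes, and edgeR's TMM scaling lowered every log2 ratio of the class by 0.24. With TMM Cxcl1 was still higher (log2 ratio 1.57), and Ccl7 and Cxcl2 kept their sign.

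Thinned macrophage-like cells carried a median of 6 members in Sham and 5 in IRI24h-TDN, and none carried no member. Pairing within cells differed between libraries. Of the cells with Cxcl2, 81.6% also had Cxcl10 in Sham and 31.0% in IRI24h-TDN. Of those with Cxcl1, 86.3% and 96.9% also had Cxcl2. All 210 cells with Ccl3 also had Ccl4 in Sham, and 94.1% did in IRI24h-TDN. These shares follow how often each gene was detected, and cells of 1 library are not replicates.

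Other genes of these cells moved as well. The 12 immediate early genes summed to 27456 CPM in Sham and 8439 CPM in IRI24h-TDN, with 8 lower and Socs3 higher by at least 2-fold, Egr1 being 6270.5 and 889 CPM and the heat shock gene Hspa1b 3560 and 889 CPM. Ribosomal protein genes took 6.82% and 3.37% of the UMIs, and C1q summed to 7844 and 12930 CPM. Of the 19 genes of the NF-κB list, 6 were higher and 2 lower, and the list summed to 19674 and 16514 CPM. The counts of both lists stand against 15.2% higher and 7.98% lower among all genes of these cells. The cytokine Tnf was 3445 and 1685 CPM and Tnfaip3, an inhibitor of NF-κB, 1348.5 and 527 CPM, while the transcription factor Cebpb was 204 and 968 CPM and Sod2, a mitochondrial superoxide dismutase, 83.8 and 395 CPM. Without correction between libraries the macrophage-like cells fell in 2 clusters, of which one held 244 cells of Sham and 55 of IRI24h-TDN and the other 12 and 656. The part of these differences in the chemokine levels was not tested.

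**Figure D4:**
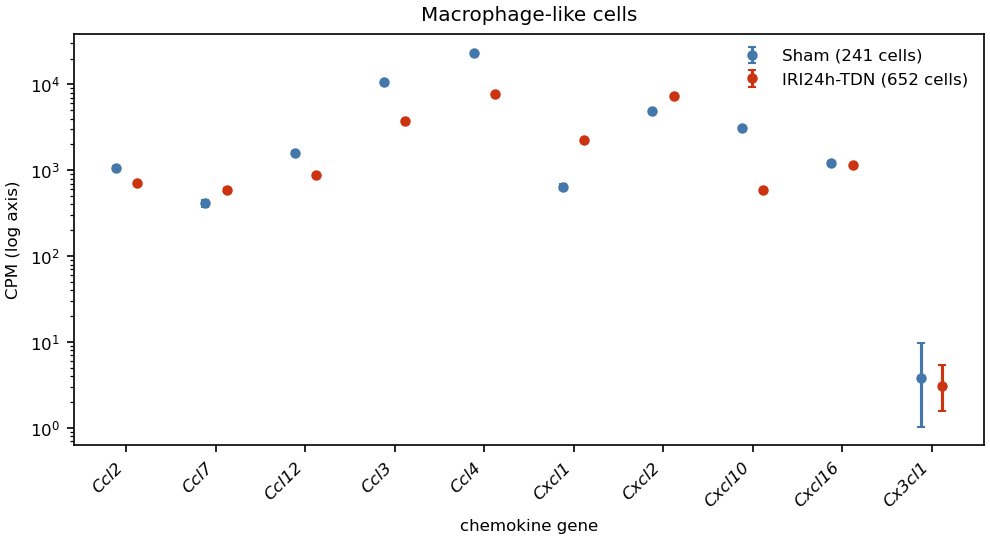
Points give the CPM of each chemokine gene (x axis) in macrophage-like cells on a log axis, with exact Poisson 95% intervals that are mostly smaller than the points, for 241 cells of Sham and 652 of IRI24h-TDN. Ccl3, Ccl4 and Cxcl10 lie lower and Cxcl1 and Cxcl2 higher in IRI24h-TDN.

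In monocyte-like cells 9 members had 20 UMIs in both libraries together, again without Cx3cl1. Ccl2, Ccl7 and Ccl12 were higher and Ccl3, Ccl4 and Cxcl10 lower, 3 of 9 each way, against 18.3% and 15.3% of 7450 genes. The median log2 ratio was -0.5 over the members and 0.05 over all genes, and the Sham level rests on 28 cells. Over all immune classes together 2 of 10 members, Ccl7 and Cxcl1, were higher and 3, Ccl3, Ccl4 and Cxcl10, were lower, against 12.6% and 8.83% of 11079 genes. This group changed in makeup, with 79 lymphocyte-like cells in Sham and 22 in IRI24h-TDN. Ccl2 was 602 CPM and 795 CPM over these classes, 1.32-fold (1.24 to 1.41), although it was lower in macrophage-like cells, and its direction turned with the settings.

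In PTEC-like cells 9 members had 20 UMIs (all but Ccl7), of which 5 were higher (Cxcl1, Cxcl2, Cxcl16, Ccl12 and Cxcl10) and 3 lower (Ccl3, Ccl4 and Cx3cl1), against 18.7% and 14.3% of 11209 genes. The Ccl12 count rests on 25 UMIs in Sham and 24 in IRI24h-TDN, and that of Ccl3 on 153 and 7. The median log2 ratio was 1.14 over the members and 0.17 over all genes. Of 18 genes of the NF-κB list, 13 were higher and 1 lower. The adhesion molecule Vcam1 was 2.8 CPM in Sham and 39.3 CPM in IRI24h-TDN, Csf1, a growth factor of macrophages, 2.67 and 35.3 CPM and the cytokine Tnf 6.86 and 0.727 CPM. Havcr1 (Kim1), which marks injured proximal tubule, was 5.85 and 2909 CPM. Of the leukocyte genes, C1q summed to 16.1 and 7.64 CPM, Lyz2 was 13.5 and 57.8 CPM and Laptm5 3.81 and 8.73 CPM, and 6 such genes (Ptprc, Tyrobp, Fcer1g, Lyz2, Cd74 and Laptm5) summed to 111 and 116 CPM. The chemokines Ccl9 and Ccl6, high in monocyte-like cells, were 1.14 and 35.6 CPM and 1.02 and 18.5 CPM in PTEC-like cells. The part of leukocyte RNA in the chemokine levels of PTEC-like cells was not tested.

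Within PTEC-like cells of IRI24h-TDN, 125 had a UMI of Havcr1 and 24 had none, with medians of 18693 and 12108.5 UMIs per cell. Cxcl1 was 324 CPM (302 to 347) with Havcr1 and 65.3 CPM (38.7 to 103) without, and Cxcl2 was 56.2 CPM (47.2 to 66.3) and 3.63 CPM (0.0919 to 20.2). Cxcl16 was 108 CPM (95 to 121) and 83.5 CPM (52.9 to 125), with intervals that overlap. Cxcl10 had the opposite order, 23.0 CPM (17.4 to 29.8) with and 61.7 CPM (35.9 to 98.8) without. In Sham the 33 cells with Havcr1 had 20.2 CPM (8.12 to 41.6) of Cxcl1 and the 953 without it 10.5 CPM (8.32 to 13.1), which overlap. Cells with a UMI of Havcr1 were deeper, and the part of depth was not tested.

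In endothelial-like cells 5 of 7 members with 20 UMIs were higher (Ccl2, Ccl4, Ccl3, Cxcl2 and Cxcl1) and Cxcl10 was lower, against 6.32% and 8.7% of 7642 genes. Of these 5, Ccl2, Ccl3, Ccl4 and Cxcl2 had 89.5% to 97.1% of their UMIs of IRI24h-TDN in 1 cell, in a class of 105 cells.

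PEC-like cells with and without PTEC genes together had 20 UMIs of all 10 members. Cxcl2 and Ccl12 were higher in IRI24h-TDN, 2 of 10, and Cxcl10, Ccl2 and Ccl3 were lower, 3 of 10, against 6.58% and 11.4% of 11994 genes. The Ccl12 count rests on 6 UMIs in Sham and 28 in IRI24h-TDN, of which 85.7% lay in 1 cell. The median log2 ratio was -0.3 over the members and -0.03 over all genes, and 3 genes of the 18 in the NF-κB list were higher and 3 lower. In IRI24h-TD, where tdT+ cells alone were taken, these classes had 0 UMIs of Ccl4 and Ccl12 against 91 and 28 in IRI24h-TDN, which puts them at most at 0.0297-fold and 0.0964-fold against the floor. Cxcl1, Cxcl2 and Cxcl16 were 1.43-fold (1.32 to 1.55), 1.15-fold (1.0 to 1.33) and 1.03-fold (0.91 to 1.17) of the IRI24h-TDN level.

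PEC-like cells with podocyte genes, which carry both lists (2947 CPM of the PEC list and 19809 CPM of the podocyte list), numbered 445, 200 and 389. Their Cxcl1 level was 143 CPM (130 to 157) in Sham, 78.7 CPM (66.2 to 92.8) in IRI24h-TDN and 51.4 CPM (44.4 to 59.1) in IRI24h-TD. Cxcl10 was 143 CPM (130 to 157), 21.2 CPM (15 to 29.1) and 8.25 CPM (5.61 to 11.7). For both genes Sham was highest and IRI24h-TD lowest, with no overlap of intervals.

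Podocyte-like cells had low levels of every member. Ccl4 was 20.7 CPM (19.2 to 22.2) in Sham, 7.48 CPM (6.74 to 8.28) in IRI24h-TDN and 0.144 CPM (0.0742 to 0.251) in IRI24h-TD, and Ccl3 was 7.52, 3.15 and 0.024 CPM. Cxcl2 was 3.98, 8.55 and 1.3 CPM. C1q summed to 4.83, 9.84 and 0.395 CPM in the same cells, in libraries that held 241, 652 and 10 macrophage-like cells. Ccl3 and Ccl4 were 0.0076-fold and 0.0192-fold of the IRI24h-TDN level in IRI24h-TD. Ccl3, Ccl4, Cxcl2 and the C1q genes were thus lowest in the library of tdT+ cells alone.

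Cxcl1, Cxcl10 and Cx3cl1 in podocyte-like cells did not share this. Cxcl1 was 18.9 CPM (17.5 to 20.4), 35.4 CPM (33.7 to 37.0) and 26.0 CPM (24.9 to 27.1) in Sham, IRI24h-TDN and IRI24h-TD, and 1156 of 8684 cells of IRI24h-TD had a UMI of it. Its ratio of IRI24h-TD to IRI24h-TDN was 0.734 (0.689 to 0.783). Cxcl10 was 8.23 CPM (7.33 to 9.22), 4.16 CPM (3.61 to 4.77) and 4.28 CPM (3.84 to 4.74). Cx3cl1 was 13.1 CPM (12 to 14.3), 11.9 CPM (11 to 12.9) and 13.4 CPM (12.6 to 14.2), a level held by 956 cells of IRI24h-TD. In the library with 10 macrophage-like cells these 3 genes thus stood at 0.734-fold or more of the IRI24h-TDN level, against 0.0192-fold or less for Ccl3 and Ccl4.

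**Figure D5:**
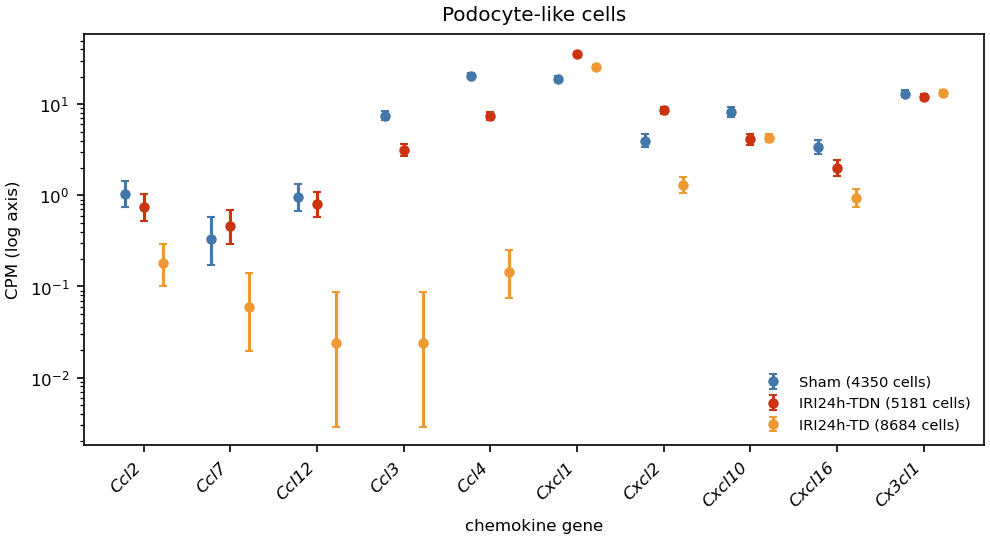
Points give the CPM of each chemokine gene (x axis) in podocyte-like cells of the 3 libraries on a log axis with exact Poisson 95% intervals. Ccl3 and Ccl4 in IRI24h-TD lie at 0.024 and 0.144 CPM, far below both mixtures, while Cxcl1, Cxcl10 and Cx3cl1 lie near the level of IRI24h-TDN.

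The receptors of these chemokines were found in immune classes. Ccr2, the receptor of Ccl2, was 452 CPM in Sham and 160 CPM in IRI24h-TDN in macrophage-like cells and 904 and 957 CPM in monocyte-like cells. Ccr1, a receptor of Ccl3, was 40.9 and 180 CPM in macrophage-like cells and 64.0 and 396 CPM in monocyte-like cells. Cxcr2, the receptor of Cxcl1 and Cxcl2, was 1515 and 607 CPM in neutrophil-like cells, and Cx3cr1 was 895 and 830 CPM in macrophage-like cells. Leukocyte genes also summed to less in neutrophil-like cells of IRI24h-TDN, and the part of this in their Cxcr2 level was not tested. Cxcr6, the receptor of Cxcl16, was 131 and 115 CPM in lymphocyte-like cells. Of the 22 receptors in the list, 7 had 20 UMIs in macrophage-like cells, with 2 higher and 1 lower, against 15.2% and 7.98% of all genes. The sheddase Adam10 was 116 and 422 CPM in macrophage-like cells, and Adam17 was 251 and 254 CPM.

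Other chemokines, 26 in the list, filled in further sources. In macrophage-like cells 12 had 20 UMIs, of which 6 were higher and 5 lower in IRI24h-TDN, against 15.2% and 7.98% of all genes of these cells. Cxcl9, which like Cxcl10 acts on Cxcr3 and is induced by interferon-γ, was 282 and 16.4 CPM there and 1472 and 54.1 CPM in dendritic-like cells, the same direction as Cxcl10. The C1q level of dendritic-like cells differed between these libraries, and the part of class makeup in their Cxcl9 level was not tested. In macrophage-like cells Ccl22 was 40.9 and 2.56 CPM and Cxcl14 9.52 and 131 CPM, and Cxcl13 had 0 UMIs in Sham and 35 in IRI24h-TDN. In monocyte-like cells Ccl5 was 392 and 2.06 CPM, Pf4 16 and 292 CPM, and Cxcl3 had 0 UMIs in Sham and 174, or 120 CPM, in IRI24h-TDN. Ccl20, a chemokine of epithelia, had 0 UMIs in connecting tubule and principal-like cells of Sham and 86.8 CPM in IRI24h-TDN, and Ccl28 in PTEC-like cells was 163 CPM in Sham and 2.18 CPM in IRI24h-TDN. Cxcl12 in PEC-like cells without PTEC genes was 384 CPM in Sham and 59.3 CPM in IRI24h-TDN.

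Across 32 groups of cells (a class in a library, at least 50 cells each) the log2 levels of 13416 genes were compared with each member by Pearson's r. These groups share libraries and classes, so r is given as a description. Ccl3 was most like Ccl4 (r = 0.986) and then Tnf (0.972), and Ccl4 was likewise most like Ccl3. Ccl12 was most like Aif1 (0.991), a macrophage gene, Ccl7 like Fcgr1 (0.984), and Ccl2 like Tlr2 (0.933), Csf1r (0.916) and Ccl7 (0.913). Cxcl2 was most like Ptpre (0.936) and Cd14 (0.935). The members with wider sources had weaker likenesses, Cxcl1 with Vcam1 (0.824), Cxcl16 with Shtn1 (0.852), Cxcl10 with the ribosomal protein gene Rpsa (0.779) and Cx3cl1 with Zfp934 (0.775).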

How the data were processed

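UMIs per gene were measured in 3 BD Rhapsody libraries, 1 for each condition. The deposited tables hold raw UMI counts per gene and barcode, made by the authors; the submitters' processing notes name CASAVA 1.8, UMI-tools, Seurat and the build mm10, and filters applied before deposit are not given in the sources used here. Barcodes with at least 200 genes and at most 50% mitochondrial UMIs were kept. Counts were scaled per cell and log-transformed, 2000 variable genes, chosen without the members, the other listed chemokines and receptors, the NF-κB and immediate early lists and mitochondrial and ribosomal genes, gave 30 principal components, libraries were aligned by an own numpy 2.4.6 version of the Harmony algorithm (theta 2), and a graph of 15 neighbours was split by the Leiden algorithm (leidenalg 0.10.2, resolution 1) into 31 clusters. Clusters were named from 152 markers in 15 lists, none of them a chemokine. The rule for naming them (fold over the mean of the other clusters), the split of PEC-like cells by PTEC and podocyte genes, the level of 40% of the podocyte list above which a cluster was called mixed, and leaving a cycling cluster unnamed were set after seeing the data. The members and lists were chosen with earlier results of these data known. Doublets were not removed in the values reported; leaving out the top 6% of doublet scores was an alternative.

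UMIs of a class in a library were summed and divided by all UMIs of that class. Levels have exact Poisson, shares of cells exact Clopper-Pearson and ratios exact conditional binomial intervals (95%, scipy 1.17.1). Ratios compare IRI24h-TDN with Sham and, in podocyte-like and PEC-like cells, IRI24h-TD with IRI24h-TDN, in classes of at least 20 cells. A zero is bounded by a floor of 3 counts per library. Counts past 2-fold use genes with at least 20 UMIs over both libraries and 0.5 UMIs added to each. Likeness is Pearson's r of log2(CPM + 10) over groups of at least 50 cells and genes with at least 200 UMIs. The genes named are the 10 members, receptors and partners of a member, up to 4 genes that lead a list by fold in a comparison and the genes most like a member. Gene positions are those of GENCODE M21. Ratios, thinning and clustering were tested on simulated data, and edgeR 4.0.16 gave the TMM factors. With 1 library per condition, a p-value could not be had and none is given. Columns of other samples numbered 0.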

Additional observations from a re-analysis of the deposited data

How the results depend on the processing

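Ratios of IRI24h-TDN to Sham were recomputed for each member in its leading group of sources and for chosen pairs of a member and a class. Up to 12 other settings were used (limits on cells, doublets, clustering, scaling, thinning and single cells). A further 2 were chosen after seeing the data, the podocyte-like level subtracted and 1 PTEC-like cluster alone. Dendritic-like, neutrophil-like, fibroblast-like and distal convoluted tubule-like cells and PEC-like cells with podocyte genes were not among the pairs. In PTEC-like cells only Cxcl1, Cxcl2, Cxcl16 and Cx3cl1 were. Ratios of IRI24h-TD were not recomputed. In macrophage-like cells the log2 ratio of IRI24h-TDN to Sham ran from 1.57 to 1.97 for Cxcl1, -2.64 to -2.38 for Cxcl10, -1.74 to -1.41 for Ccl3 and -1.83 to -1.56 for Ccl4. That of Cxcl16 ran from -0.33 to 0.13, and the other members kept their sign there. In PTEC-like cells Cxcl1 ran from 4.27 to 5.25 and Cxcl16 from 1.2 to 2.9, and Cxcl10 in PEC-like cells (with and without PTEC genes) from -3.43 to -2.78. Cxcl1 in the latter, 0.13, became -0.053 with a limit of 20% mitochondrial UMIs, -0.047 without the top 6% of doublet scores and -0.028 with 4000 variable genes, and in ascending limb-like cells, 2.31, it became -1.31, -0.60 and -0.93 under the same settings. Over immune classes Cxcl16, 0.24, became -0.14 without the top doublet scores and -0.17 with 4000 variable genes, and Ccl2, 0.4, became -0.0093 with 4000 variable genes and -0.18 after thinning. Cxcl1 in PEC-like cells without PTEC genes, -1.19, became 0.032 without correction between libraries and 0.084 at resolution 0.6, settings that gave no separate class with PTEC genes. For the other reversals the cause was not tested. Members at least 2-fold higher in their leading group of sources (immune classes for all but Cx3cl1) numbered 2 of 10. This count was 1 without the top doublet scores, with 4000 variable genes, as a mean over cells and after thinning. Ccl3, Ccl4 and Cxcl10 were at least 2-fold lower in every setting. Over immune classes 12.6% of 11079 genes were higher and 8.83% lower in the main setting. These shares were not recomputed with other doublet limits, variable genes, means over cells or thinning. The number of genes past 2-fold moved with the minimum of UMIs per gene (20 in the main count, 5 or 50 otherwise): lower in macrophage-like cells 757, 1496 and 428; lower in monocyte-like cells 1142, 2251 and 563; lower over immune classes 978, 1834 and 593; higher in endothelial-like cells 483, 1056 and 206; lower in endothelial-like cells 665, 1432 and 339; higher in monocyte-like cells 1364 and, with 50, 844; higher in PEC-like cells 789 and, with 5, 1285. Monocyte-like cells rest on 28 Sham cells and could be compared under 8 of these settings. Counting intervals do not cover differences between mice.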
